A study of Mus musculus with 24 samples.

Results

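The messages of 10 oocyte genes were followed through early cleavage of the mouse embryo. The 10 genes are Zp1, Zp2 and Zp3, which encode the egg coat; Gdf9, Bmp15 and Oosp1, which encode secreted proteins; Mos and Kit, which encode kinases; and Figla and Nobox, which encode transcription factors of the oocyte. They were chosen by symbol, as members of known oocyte pathways, out of the 55291 genes that the count files hold, and each symbol matched 1 row. No other annotated gene overlaps any of the 10.

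The embryos came from mating B6D2F1 mice 8 weeks old (the sample labels give the strain as BDF2). Zygotes were injected in the male pronucleus with antisense oligonucleotides (ASOs), synthetic DNA-like molecules that bind a matching transcript so that it is cut, at 20 µM, and both arms therefore carry an injection. MERVL-KD embryos received a mixture of 3 ASOs against MERVL, an endogenous retrovirus that is switched on at the 2-cell stage, and control embryos received an ASO of scrambled sequence. Total RNA was sequenced from pools of 30 embryos at the 2-cell, 4-cell and 8-cell stages, with 2 biological replicates of each arm at each stage. Embryos were assigned to a stage by eye, and the labels give 1.5 days post coitum (dpc) for the 2-cell stage but 2.5 dpc for both later stages, so an 8-cell MERVL-KD pool holds embryos that had reached this stage. The egg coat had been dissolved with acid before lysis, which removes protein outside the cell and leaves the RNA inside it.

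During its growth the oocyte builds the zona pellucida, a coat of ZP1, ZP2 and ZP3 that sperm must bind and cross, and secretes GDF9 and BMP15, TGF-beta family ligands that act on the surrounding granulosa and cumulus cells. FIGLA and NOBOX are oocyte transcription factors that are needed for the expression of zona genes and of Gdf9, Bmp15 and Oosp1, respectively. MOS starts the MAP kinase cascade that holds the mature egg in metaphase, and KIT is the receptor through which granulosa cells promote oocyte growth. After fertilisation such maternal messages are degraded while the embryo starts its own transcription, so the level of a maternal message in cleavage embryos reflects its decay and its share beside the new RNA.

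The stretches upstream of the RefSeq start of 3 members are shown for the letters that FIGLA and NOBOX are known to favour. Among the 6 members with such a stretch, Oosp1 and Bmp15 fell most from the 2-cell to the 4-cell stage in control embryos, and Zp3 least. RefSeq promoter windows (build GRCm38.p6) matched 6 of the 10 members, namely Zp3, Bmp15, Oosp1, Figla, Nobox and Kit; Zp1, Zp2, Gdf9 and Mos have no entry there. The 250 bases before the start site are printed 5′ to 3′ on the gene's own strand, with capitals for CANNTG (the E-box, the letters bound by FIGLA with its partners, which reads the same on both strands) and for TAATTA or TAATTG on either strand (letters bound by NOBOX). No 2 matches overlap. The starts are those of RefSeq and differ for some members from the gene spans that were counted. The Oosp1 window runs into its counted span (chr19:11667460-11691150), as do the ends of the Zp3 and Kit windows. The Figla window (chr6:86016941-86017190) lies wholly inside the counted span of Figla (chr6:86016171-86020996). 
Zp3 (chr5:135979855-135980104, plus strand): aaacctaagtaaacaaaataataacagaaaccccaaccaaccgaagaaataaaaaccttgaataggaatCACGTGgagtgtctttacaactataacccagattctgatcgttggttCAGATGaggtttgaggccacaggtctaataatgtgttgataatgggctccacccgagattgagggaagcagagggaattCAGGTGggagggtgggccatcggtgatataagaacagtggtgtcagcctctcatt
Bmp15 (chrX:6320725-6320974, minus strand): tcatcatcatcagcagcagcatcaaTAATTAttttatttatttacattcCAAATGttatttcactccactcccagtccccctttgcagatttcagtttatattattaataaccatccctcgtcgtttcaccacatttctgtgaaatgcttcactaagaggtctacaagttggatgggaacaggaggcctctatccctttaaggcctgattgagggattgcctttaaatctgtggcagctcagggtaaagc
Oosp1 (chr19:11691052-11691301, minus strand): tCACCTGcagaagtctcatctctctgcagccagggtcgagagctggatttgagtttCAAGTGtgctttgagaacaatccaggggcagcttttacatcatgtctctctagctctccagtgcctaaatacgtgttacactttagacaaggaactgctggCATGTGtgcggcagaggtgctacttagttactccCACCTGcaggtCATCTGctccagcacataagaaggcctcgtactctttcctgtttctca

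The Zp3 window held 3 E-boxes, the farthest of them CACGTG, which begins 181 bases before the start. The Bmp15 window held 1 E-box and the only TAATTA or TAATTG match among the 6 members, and the Oosp1 window held 5 E-boxes. Figla and Nobox had 2 E-boxes each, and Kit had none at either of its 2 annotated starts. An E-box occurs in 66.2% of all 32851 windows of this length and TAATTA or TAATTG in 11.3%, so the E-box letters are common and a match describes the sequence only. TATAA on the sense strand within 50 bases of the start, found in 4.93% of windows, occurred in Zp3 alone among the 6, beginning 29 bases before the start. The 3 MERVL ASOs, each 20 bases long, were aligned with the whole span of every member on the transcribed strand, and the best site in any member still had between 6 and 8 mismatches, the same range as for the scrambled ASO.

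Libraries held from 28167085 to 41482526 counts. The targeted element followed the labels: at the 2-cell stage MERVL-int held 6.33% and 6.57% of a control library's counts but only 0.157% and 0.143% after knockdown, and at later stages it held 1.07% to 2.07% in control against at most 0.0544% in MERVL-KD libraries. Markers of the 2-cell embryo (5 genes, Zscan4c among them) summed to 593 to 649 CPM (counts scaled to the size of the library) in control 2-cell libraries and to 55.8 to 106 CPM at later stages (most of it from 1 of them, Tdpoz4, which did not pass the test from the 2-cell to the 4-cell stage in control embryos, adjusted p = 0.933), whereas 6 genes of later embryos summed to between 105 and 138 CPM at the 2-cell stage and to between 377 and 557 CPM after it. Of the genes of later embryos, Krt18 (log2 fold change −0.14, adjusted p = 0.718) and Cdx2 (0.64, adjusted p = 0.51) did not pass the test over that step in control embryos. Markers of cumulus and granulosa cells (11 genes) summed to at most 6.48 CPM and sperm markers (6 genes) to at most 2.04 CPM in any library.

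Levels are given as CPM normalised with TMM factors over the 12 libraries (normalised CPM), that is, as shares of the RNA in a library rather than as molecules per embryo. The sum over the 10 members was 0.164% and 0.15% of gene counts in control embryos at the 2-cell stage, and 0.121% and 0.132% after knockdown. Bmp15 and Oosp1 made up most of it at this stage, with 19287 and 9745 of the 42002 counts in the first control library. Bmp15 had 19287 and 18961 counts in control and 11491 and 12057 in MERVL-KD 2-cell libraries. By the 4-cell stage the sum over the 10 members had come down to 0.0181% in each control library, with 0.0203% and 0.02% in MERVL-KD. At the 8-cell stage it lay between 0.0127% and 0.015% in all 4 libraries. The 10 messages were thus a small share of the RNA at the 2-cell stage and a much smaller one later, in both arms.

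**Figure D1:**
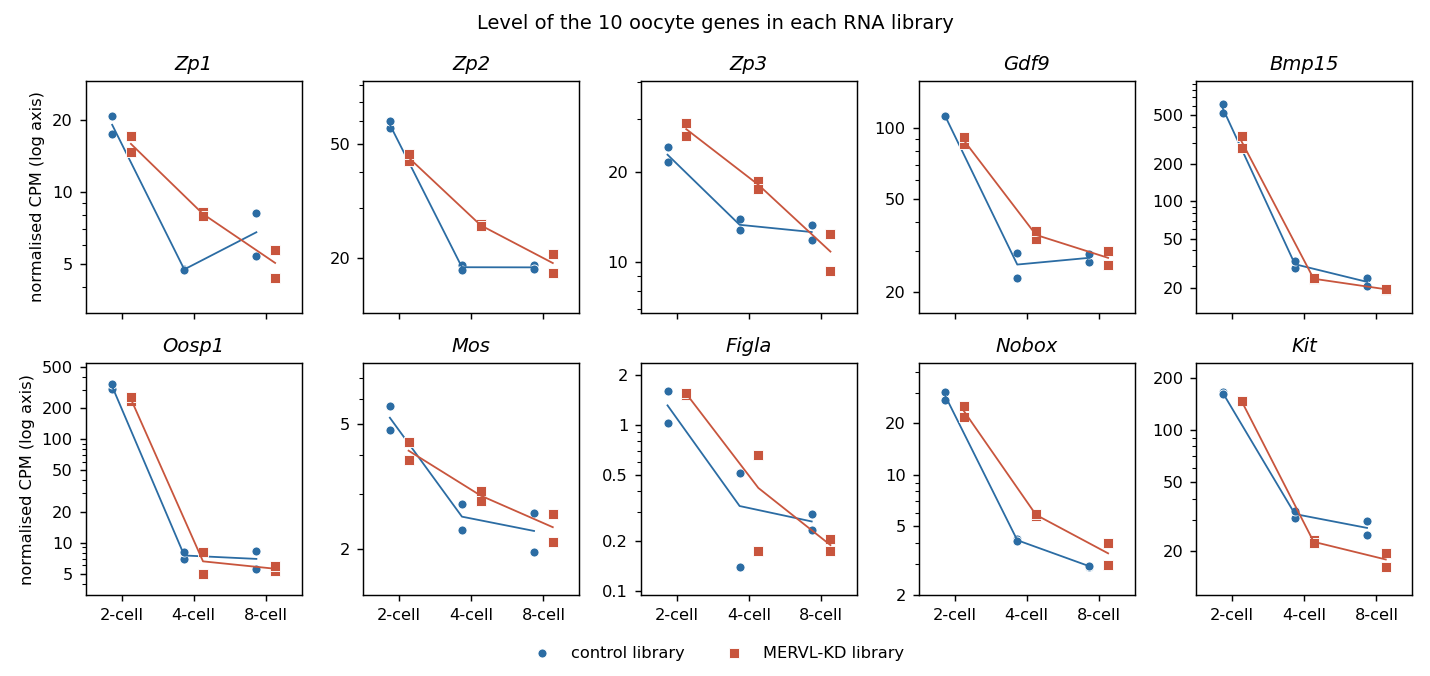
Normalised CPM (log axis, scale set per gene) of the 10 genes by stage. Each point is 1 library of 30 embryos (circles, control; squares, MERVL-KD; 2 of each per stage) and lines join group means. The steep part of nearly every panel lies between the 2-cell and the 4-cell stage, from 326 to 7.5 in control for Oosp1 and from 22.8 to 13.3 for Zp3. The MERVL-KD points lie above the control points at the 4-cell stage for Zp1, Zp2, Zp3, Gdf9, Mos and Nobox. None of these genes passed the edgeR test between arms at that stage (adjusted p from 0.0602 to 0.759).

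Per kilobase of exon, Oosp1 was the most abundant member in control 2-cell embryos, at 335 ± 21.9 normalised CPM per kb (SD, n = 2), followed by Bmp15 at 186 ± 21.5 and Gdf9 at 55.5 ± 0.225. The coat genes, Kit and Nobox formed a middle group from Zp2 at 21.4 ± 0.827 to Zp1 at 9.64 ± 1.16. Mos, at 3.62 ± 0.447, and Figla, at 1.57 ± 0.487 normalised CPM per kb, were the least abundant. In that order only the neighbours Kit and Zp3 overlapped between their libraries. The top of the order had changed by the 4-cell stage in control embryos, where Gdf9 led at 12.9 ± 2.28 normalised CPM per kb, Bmp15 and Zp3 overlapped at 10.1 each, and Oosp1 stood below them at 7.71 ± 0.919. In MERVL-KD 4-cell embryos Gdf9 again led, at 17.3 ± 1.03 normalised CPM per kb, with Zp3 (13.7 ± 0.641) and Zp2 (9.56 ± 0.111) now above Bmp15 (7.7 ± 0.0752). At the 8-cell stage Gdf9 was the most abundant per kb in both arms, at 13.8 normalised CPM per kb in each. Figla was last in all 6 groups.

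The coat genes were expressed at moderate levels and differed in how much of their RNA share remained. Zp1, which encodes the protein that cross-links zona filaments (chr19:10914287-10920632, minus strand), started in control embryos from 20.7 and 17.5 normalised CPM, reached 4.77 and 4.72 at the 4-cell stage and stood at 5.41 and 8.17 at the 8-cell stage. In MERVL-KD embryos Zp1 had 14.7 and 17.1, then 8.24 and 7.95, then 4.39 and 5.72 normalised CPM. Both MERVL-KD libraries were above both control libraries at the 4-cell stage, below them at the 2-cell stage, and overlapped with them at the 8-cell stage. Here and below such an order describes 2 libraries per arm, and the share of all genes whose arms lie apart is not given. Zp2, the zona protein that sperm bind (chr7:120126772-120145291, minus strand), had 56.8 and 60.0 normalised CPM in control 2-cell libraries, 18.9 and 18.2 at the 4-cell stage and 18.9 and 18.3 at the 8-cell stage. The MERVL-KD values of Zp2 were 43.6 and 46.0, then 26.3 and 25.8, then 20.7 and 17.8 normalised CPM. The arms were apart at the 2-cell stage (MERVL-KD lower) and at the 4-cell stage (MERVL-KD higher), and their libraries overlapped at the 8-cell stage. Zp3, which forms the filaments together with ZP2 (chr5:135980099-135988624, plus strand), had 21.5 and 24.1, then 12.8 and 13.9, then 11.9 and 13.3 normalised CPM in control libraries. Its MERVL-KD values were 29.2 and 26.4, then 18.7 and 17.5, then 12.4 and 9.34 normalised CPM. Zp3 was the member with the flattest course in control embryos, and its MERVL-KD libraries lay above the controls at both the 2-cell and the 4-cell stage.

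The secreted factors Bmp15 and Oosp1 had the highest levels of the 10 members at the 2-cell stage. Gdf9 (chr11:53431023-53437904, plus strand), needed by granulosa cells for follicle growth, had 112.5 and 113 normalised CPM in control 2-cell libraries, 29.5 and 22.9 at the 4-cell stage and 26.9 and 29.1 at the 8-cell stage. In MERVL-KD libraries Gdf9 had 85.4 and 92.2, then 33.6 and 36.5, then 29.9 and 26.1 normalised CPM. The groups did not overlap at the earlier stages, with MERVL-KD lower in the first and higher in the second, and overlapped at the 8-cell stage. Bmp15, its X-linked partner ligand (chrX:6314107-6320721, minus strand), had 615 and 522 normalised CPM in control 2-cell libraries but 28.8 and 33.0 at the 4-cell stage and 23.8 and 20.6 at the 8-cell stage. In MERVL-KD libraries it had 273 and 341, then 23.4 and 23.7, then 19.2 and 19.5 normalised CPM, below both control libraries at each stage. Oosp1 (chr19:11667460-11691150, minus strand), an oocyte-secreted protein, had 311 and 341 normalised CPM in control 2-cell libraries, 6.87 and 8.13 at the 4-cell stage and 5.51 and 8.38 at the 8-cell stage. The MERVL-KD libraries had 235 and 257, then 4.97 and 8.18, then 5.25 and 5.9 normalised CPM. They lay below the controls at the 2-cell stage only, and overlapped with them later.

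Among the kinases, Mos (chr4:3870657-3872105, minus strand) was scarce, with 4.78 and 5.7 normalised CPM in control 2-cell libraries, 2.3 and 2.78 at the 4-cell stage and 1.96 and 2.61 at the 8-cell stage. MERVL-KD libraries had 3.85 and 4.38, then 2.86 and 3.07, then 2.6 and 2.1 normalised CPM of Mos, with MERVL-KD lower at the 2-cell stage, higher at the 4-cell stage and overlapping with control at the 8-cell stage. Kit (chr5:75574916-75656722, plus strand) was abundant, with 165.6 and 160.1 normalised CPM in control 2-cell libraries, 31.0 and 34.0 at the 4-cell stage and 24.5 and 29.6 at the 8-cell stage. Its MERVL-KD values were 146.1 and 146.2, then 22.9 and 22.1, then 19.4 and 16.2 normalised CPM. Kit was below both control libraries in both MERVL-KD libraries at all 3 stages.

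Of the transcription factors, Nobox (chr6:43303674-43309554, minus strand) had 30.6 and 27.3 normalised CPM in control 2-cell libraries, 4.2 and 4.1 at the 4-cell stage and 2.9 and 2.95 at the 8-cell stage. In MERVL-KD libraries Nobox had 21.7 and 25.3, then 5.77 and 5.9, then 3.98 and 2.98 normalised CPM. MERVL-KD was lower at the 2-cell stage and higher at both later stages, with no overlap between the arms. The gap at the 8-cell stage was narrow, and Nobox did not pass the edgeR test between arms at any stage (adjusted p from 0.288 to 0.736). Figla (chr6:86016171-86020996, plus strand) was at the limit of measurement: it had 32 and 58 counts in control 2-cell libraries and 64 and 55 in MERVL-KD 2-cell libraries. Later it had 18 and 4 counts (control) or 24 and 6 counts (MERVL-KD) per 4-cell library, and 8 and 7 or 6 and 8 counts per 8-cell library. Replicates of Figla at the 4-cell stage thus differed more than the arms did.

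The order of the arms at the 2-cell stage depended on the scaling. With counts over the library total in place of TMM factors, Bmp15 still lay lower and Zp3 still higher in both MERVL-KD libraries, but the arms overlapped for Zp1, Zp2, Gdf9, Oosp1, Mos and Nobox. Gdf9, for example, then had 105 and 99.4 CPM in control and 101 and 107 CPM in MERVL-KD embryos. Kit then lay above the controls, at 173 and 170 CPM against 155 and 141 CPM, and so did Figla. In 4-cell embryos each member had the same order of the arms, or overlap, under both scalings, and in 8-cell embryos Bmp15 came to overlap and Zp2 to lie higher in MERVL-KD.

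The first comparison asked how far the maternal messages decline in control embryos between the 2-cell and the 4-cell stage. All 10 members were lower at the 4-cell stage, all 10 past the adjusted p, as were 28.7% of all genes, and 9 of them fell by at least 2-fold (adjusted p under 0.05, edgeR quasi-likelihood test), where 24.3% of the 24040 genes tested were called lower and 20.7% higher. The median log2 fold change of the members was −2.06, beside −0.06 over all genes tested. Oosp1 fell furthest, with a log2 fold change of −5.44 (SE 0.222, adjusted p = 1.58e-11), which left 2.3% of its 2-cell share. Only 1.74% of all genes had a lower log2 fold change than Oosp1. Bmp15 followed at −4.20 (SE 0.134, adjusted p = 6.51e-16), or 5.44% of its 2-cell share, and Gdf9 retained 23.3% (log2 fold change −2.10, SE 0.136, adjusted p = 1.88e-11). The secreted factors therefore spanned the range from an almost complete to a moderate decline.

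The transcription factor Nobox fell to 14.4% of its 2-cell share (log2 fold change −2.80, SE 0.215, adjusted p = 2.9e-10), and Kit fell to 20% (−2.32, SE 0.126, adjusted p = 1.14e-12). Among the coat genes, Zp1 fell to 24.9% (log2 fold change −2.01, SE 0.239, adjusted p = 2.62e-07) and Zp2 to 31.8% (−1.65, SE 0.139, adjusted p = 1.33e-09). Zp3 passed the test with a change under 2-fold, to 58.4% (log2 fold change −0.78, SE 0.178, adjusted p = 8.32e-04), the smallest change of the 10. With library size alone Mos was under 2-fold (−0.88) and Figla missed the threshold (adjusted p = 0.0523), which left 7 called. The calls of Mos (−1.05, SE 0.33, adjusted p = 0.0105) and Figla (−1.97, SE 0.767, adjusted p = 0.0345) also rested on single libraries. Without the second control 2-cell library neither Mos (adjusted p = 0.0945) nor Figla (0.192) passed. Mos was also lost without the first control 4-cell library (0.0923), and Figla without the second (0.243).

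**Figure D2:**
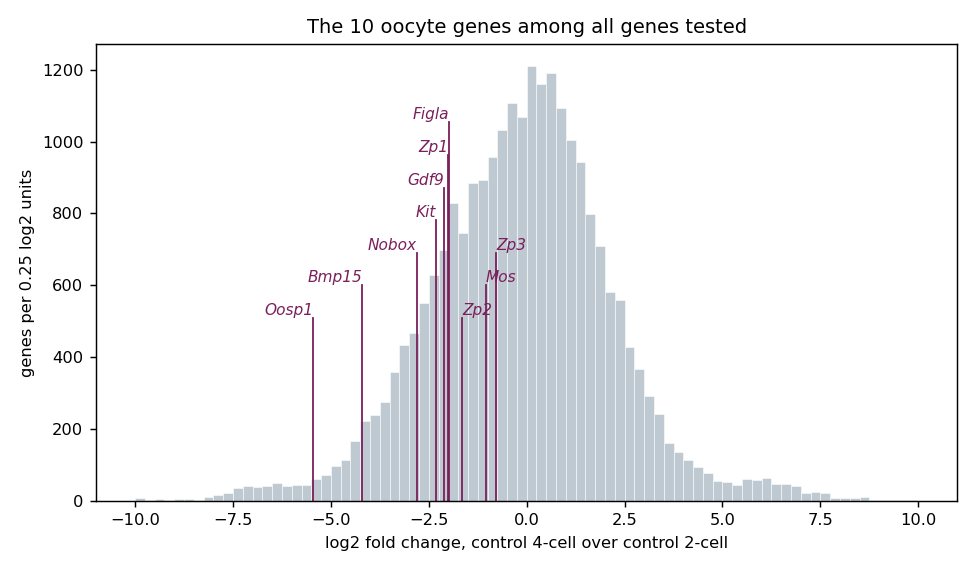
Number of genes (vertical axis, per 0.25 log2 units) by log2 fold change from control 2-cell to control 4-cell embryos, with a vertical line at each of the 10 oocyte genes (line height has no meaning). The members run from Oosp1 at −5.44 to Zp3 at −0.78, all to the left of the median of all genes at −0.06.

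Between the 4-cell and the 8-cell stage the control level of the members changed little. None of the 10 was called at 2-fold by edgeR or DESeq2, where 1.09% of all genes were called lower and 0.474% higher. An unadjusted p under 0.05 was found for 4 of the 10, as for 4650 of all 24040 genes. Bmp15 was lower with a change under 2-fold, where 2.68% of all genes passed lower (log2 fold change −0.48, SE 0.124, adjusted p = 0.0258), and this was lost without the second control 4-cell library (adjusted p = 0.221) or the second control 8-cell library (0.209). Zp1 had a log2 fold change of 0.52 (95% interval 0.02 to 1.02, adjusted p = 0.231) and Nobox one of −0.50 (−0.97 to −0.04, adjusted p = 0.207). For Zp2 the estimate was 0.00, with a 95% interval from −0.29 to 0.29. Over the whole course from the 2-cell to the 8-cell stage in control embryos, 9 of 10 were called lower, where 26.9% of all genes were, from Oosp1 at −5.55 (SE 0.225) and Bmp15 at −4.68 (SE 0.138) to Mos at −1.19 (SE 0.334), with Zp3 at −0.86 (SE 0.179, adjusted p = 3.11e-04) under 2-fold. Figla lost its call without the second 2-cell library (adjusted p = 0.114), the first 8-cell library (0.0686) or the second 8-cell library (0.102), and Mos lost it without the first 8-cell library (0.0825).

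Because values are shares, degradation of a maternal message and its dilution by new embryonic RNA cannot be told apart in these data, and neither can fewer cells of a type and less RNA per cell. The summed cumulus and granulosa markers also declined with stage, from 5.16 to 6.48 CPM at the 2-cell stage to between 0.744 and 2.8 CPM later, with Ptx3 at 0 in 11 of the 12 libraries. Single markers differed. From the 2-cell to the 4-cell stage in control embryos 6 could be tested, of which 5 had a negative value and 2 passed lower. In MERVL-KD embryos Foxl2 rose over this step (log2 fold change 4.04, adjusted p = 0.00405), from 0.0475 and 0.0566 to 0.714 and 1.11 CPM. The part of these markers in the decline of the members was not tested.

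Next, MERVL-KD embryos were compared with control embryos at the 2-cell stage, when MERVL is normally at its peak. None of the 10 members was called at 2-fold by edgeR or by DESeq2, where 4.37% of 20604 genes were called higher and 2.24% lower; 5 of the 10 had an unadjusted p under 0.05. Without the fold threshold, 2 of 10 passed the test, both lower, where 7.39% of all genes did. The median log2 fold change of the members was −0.24, beside 0.01 over all genes. A negative value was found for 8 of the 10, and for 10058 of all 20604 genes. Fold changes between arms were fitted within a stage and can differ slightly from the ratio of the levels above.

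Bmp15 had the lowest value, at a log2 fold change of −0.81 (SE 0.109, adjusted p = 1.73e-04), so that MERVL-KD embryos held 57.2% of the control share. This difference passed the test in all 9 alternative settings (adjusted p from 1.18e-17 to 0.0046) and with any of the 4 libraries left out, with a log2 fold change between −0.98 and −0.52 throughout. Only 7.22% of all genes had a lower value than Bmp15. Oosp1 was lower by less (log2 fold change −0.32, SE 0.0846, adjusted p = 0.0187), and its call rested on the scaling: with library size alone it had a log2 fold change of −0.03 (adjusted p = 0.826), and it was also lost in the fit of all 12 libraries (adjusted p = 0.216) and without the second control (0.111) or the first MERVL-KD library (0.0708). Gdf9 (−0.26, SE 0.092, adjusted p = 0.073) and Zp2 (−0.30, SE 0.107, adjusted p = 0.0792) did not pass. Zp3, in contrast, had a positive value of 0.37 (SE 0.139, adjusted p = 0.0952) that also missed the threshold, but passed with library size alone (0.66, adjusted p = 0.00292). The remaining members had intervals that include 0, from −0.26 to 0.11 for Kit and from −0.57 to 1.20 for Figla.

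With library size alone the median over all genes at the 2-cell stage moved from 0.01 to 0.30, and the values of Zp1, Gdf9, Mos, Nobox and Kit turned from negative to slightly positive, between 0.02 and 0.21, none of them past the threshold. Bmp15 remained lower under that scaling (log2 fold change −0.52, adjusted p = 0.0046). Markers of the 2-cell embryo also had a lower sum in MERVL-KD at this stage (338 to 410 CPM against 593 to 649 CPM, over 5 genes). All 5 had a negative value and 3 passed lower, where 7.39% of all genes did. The 6 genes of later embryos summed to 136 to 138 CPM against 105 to 121 CPM. Of these, 5 had a positive value, and Tead4 (0.63, adjusted p = 0.0237) and Cdh1 (0.30, adjusted p = 0.0462) passed higher, where 6.7% of all genes did. The oviduct gene Ovgp1 was higher, at 3.03 and 5.04 CPM against at most 1.18 CPM (log2 fold change 2.20, adjusted p = 0.00122). Cumulus markers summed to 5.16 and 6.48 CPM in MERVL-KD and 5.2 and 5.42 CPM in control 2-cell libraries. The part of these in the difference of Bmp15 was not tested.

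**Figure D3:**
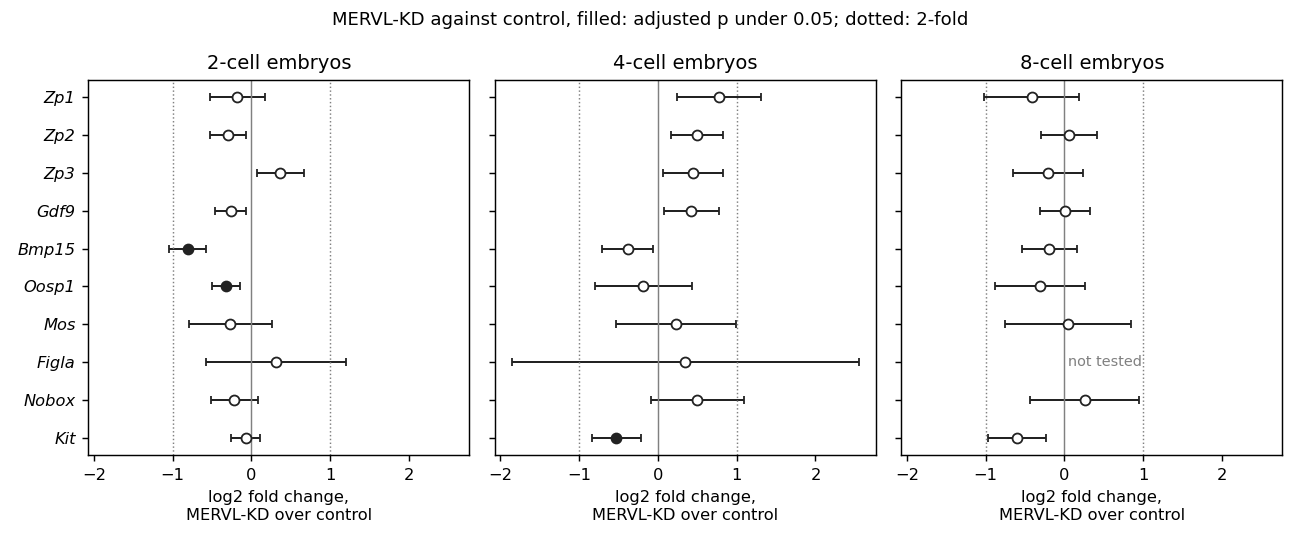
Log2 fold change of MERVL-KD over control (horizontal axis) for the 10 genes at each stage, with 95% intervals from the edgeR fit of 4 libraries; filled circles have an adjusted p under 0.05 and dotted lines mark 2-fold. The filled circles are Bmp15 (−0.81) and Oosp1 (−0.32) at the 2-cell stage and Kit (−0.53) at the 4-cell stage, none reaches 2-fold, and Figla was below the filter on low counts at the 8-cell stage.

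In 4-cell embryos 7 of the 10 members had a positive value, as did 10247 of all 19738 genes, and Bmp15, Oosp1 and Kit a negative one. None was called at 2-fold by edgeR or DESeq2, where 2.66% of 19738 genes were called higher and 1.88% lower. Before adjustment, the edgeR p lay below 0.05 for 6 of the 10 members, beside 4948 of all 19738 genes. Kit was the only member past the adjusted p, where 5.84% of all genes passed lower: it was lower in MERVL-KD, with a log2 fold change of −0.53 (SE 0.144, adjusted p = 0.0384) or 69.4% of the control share. That call was lost with library size alone (−0.46, adjusted p = 0.0855) and without the first control (adjusted p = 0.0801), the second control (0.233) or the second MERVL-KD library (0.0701), and with the replicate number as a block (0.0608), while the value stayed negative in each of these.

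The 3 coat genes all had positive values at the 4-cell stage that did not pass. Zp1 had a log2 fold change of 0.78 (SE 0.245, adjusted p = 0.0681), Zp2 one of 0.49 (SE 0.15, adjusted p = 0.0602) and Zp3 one of 0.45 (SE 0.174, adjusted p = 0.13). Gdf9 (0.42, SE 0.158, adjusted p = 0.117) and Nobox (0.50, SE 0.27, adjusted p = 0.288) were also positive, whereas Bmp15 was negative (−0.39, SE 0.147, adjusted p = 0.124). Of these, Zp2 crossed the threshold in 4 of 9 alternative settings and Zp1, Gdf9 and Bmp15 in 1 of 9 each. The median of the members was 0.39, beside 0.03 over all genes. Cumulus and granulosa markers summed to 1.98 and 2.8 CPM in MERVL-KD 4-cell libraries and to 1.22 and 1.56 CPM in control, with 11 and 8 of the 11 genes detected. Only Foxl2, a granulosa factor, could be tested among these 11, and it did not pass (0.714 and 1.11 CPM against 0.284 and 0.0695 CPM, adjusted p = 0.109), while Cyp11a1, an enzyme of steroid synthesis, had 0.11 and 0 CPM in MERVL-KD against 0.284 and 0.625 CPM in control. Of the 6 genes of later embryos, the keratin genes Krt8 (log2 fold change 2.45, adjusted p = 2e-05) and Krt18 (1.41, adjusted p = 0.00725) were higher in MERVL-KD 4-cell embryos and Tead4, a transcription factor of the trophectoderm lineage, was lower (−0.56, adjusted p = 0.0132). Of the 5 markers of the 2-cell embryo, 3 had a negative value and 2 a positive one, and only Zfp352 passed (−1.04, adjusted p = 0.0317). Zscan4c had a positive value of 2.44 that did not pass (adjusted p = 0.0968). It had 2.61 and 0.409 CPM in MERVL-KD against 0.34 and 0.208 CPM in control 4-cell libraries. The part of these markers in the values of the coat genes was not tested.

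At the 8-cell stage Figla did not pass the filter on low counts, and 9 members were tested. None was called at 2-fold, where 1.06% of 18414 genes were lower and 0.641% higher. None passed without the fold threshold either, where 5.06% of genes passed in either direction. DESeq2 called none at 2-fold. Of the 9 members 1 had an unadjusted p under 0.05, as did 3582 of all 18414 genes. That member was Kit, with a log2 fold change of −0.60 (SE 0.168, adjusted p = 0.0645), which passed in 4 of 9 alternative settings and when 1 of the 4 libraries was left out. Zp2 (0.06, 95% interval −0.30 to 0.41) and Gdf9 (0.01, −0.31 to 0.32) had the values nearest 0. Zp1 (−0.42, −1.02 to 0.18) and Oosp1 (−0.31, −0.88 to 0.26) had wide intervals, so a difference of the size of these values was not detectable in Zp1 or Oosp1 with 2 libraries per arm. The median of the 9 members was −0.19, beside 0.01 over all genes.

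Whether the effect of MERVL-KD differed between the 2-cell and the 4-cell stage was tested as an interaction in one fit of the 12 libraries. This contrast is at the same time the test of whether the step from the 2-cell to the 4-cell stage differed between the arms. None of the 10 members was called at 2-fold by edgeR, where 1.27% of genes were called in the positive direction and 1.03% in the negative. DESeq2 called 1, Zp1, where it called 474 of 24040 genes in the positive direction and 336 in the negative. An unadjusted p under 0.05 was found for 6 of the 10, and the count over all genes at that level is not given here. Without the fold threshold 2 members passed, both positive, where 2.51% of all genes did. Zp2 moved from lower in MERVL-KD at the 2-cell stage to higher at the 4-cell stage, with a difference in log2 fold change of 0.87 (SE 0.192, adjusted p = 0.0121). Gdf9 moved in the same way, with a difference of 0.76 (SE 0.186, adjusted p = 0.0219). In the fit of all 12 libraries with library size alone, the difference of Zp2 was 0.56 (adjusted p = 0.105) and that of Gdf9 0.46 (adjusted p = 0.174), so both calls depended on the scaling, which moved the median over all genes from 0.05 to −0.25.

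Leaving out single libraries also decided these calls. Zp2 was lost without the second control 2-cell, the first MERVL-KD 2-cell or the second MERVL-KD 4-cell library, with adjusted p-values of 0.0603, 0.0634 and 0.0541. Gdf9 was lost without these 3 or the second control 4-cell library (adjusted p of 0.0646, 0.101, 0.14 and 0.129 in that order). The differences stayed positive throughout, between 0.77 and 0.92 for Zp2 and between 0.59 and 0.96 for Gdf9. Zp1 had the largest difference (1.03, SE 0.326) but an adjusted p of 0.0799, and Nobox had one of 0.79 (SE 0.288, adjusted p = 0.141). Bmp15 had one of 0.50 (SE 0.169, adjusted p = 0.108), and Kit was the one member with a negative difference (−0.38, SE 0.172, adjusted p = 0.262), which passed with library size alone (−0.68, adjusted p = 0.0323). The median over members was 0.54, beside 0.05 over all genes.

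**Figure D4:**
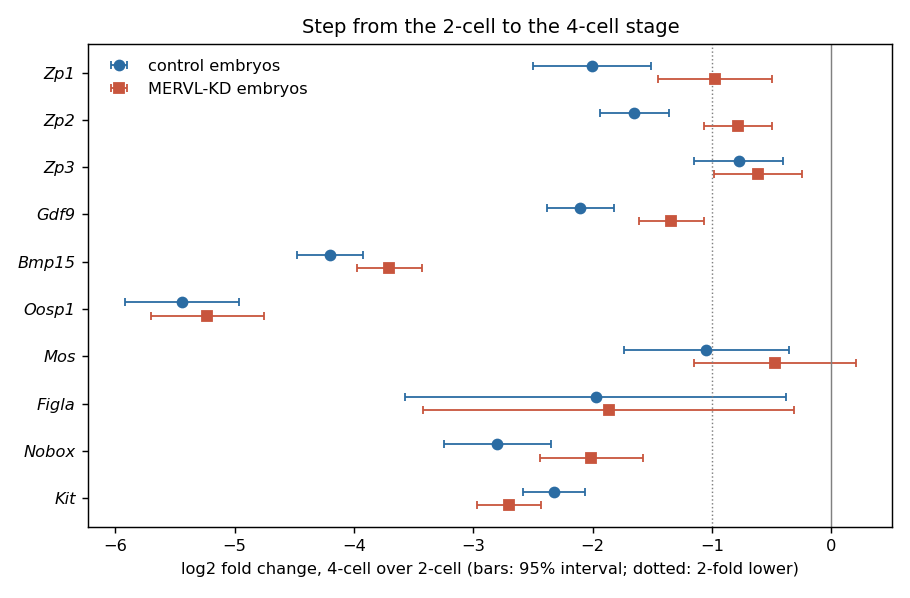
Log2 fold change from the 2-cell to the 4-cell stage (horizontal axis) for the 10 genes in control embryos (circles) and MERVL-KD embryos (squares), with 95% intervals from the fit of all 12 libraries; the dotted line marks 2-fold lower. The intervals of Zp2 (−1.65 in control, −0.78 in MERVL-KD) and of Gdf9 (−2.10 and −1.34) lie apart, as do those of Zp1 (−2.01 and −0.97), which did not pass the interaction test, while those of Zp3 (−0.78 and −0.62) and Oosp1 (−5.44 and −5.23) lie on top of each other.

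Within MERVL-KD embryos the step from the 2-cell to the 4-cell stage was called lower at 2-fold for 6 of 10 members, namely Gdf9, Bmp15, Oosp1, Figla, Nobox and Kit, where 23.0% of all genes were called lower and 21.2% higher, and 9 passed at any fold, where 27.3% of all genes passed lower. Oosp1 again fell furthest (log2 fold change −5.23, SE 0.221, 2.67% of the 2-cell share left), followed by Bmp15 (−3.70, SE 0.131, 7.67% left), Kit (−2.70, SE 0.129, 15.4% left) and Nobox (−2.01, SE 0.207, 24.8% left). Gdf9 fell to 39.5% (−1.34, SE 0.133, adjusted p = 1.7e-08). All 3 coat genes passed the test with changes under 2-fold: Zp1 retained 50.9% of its 2-cell share (−0.97, SE 0.229, adjusted p = 0.00108), Zp2 58.1% (−0.78, SE 0.136, adjusted p = 4.3e-05) and Zp3 65.3% (−0.62, SE 0.175, adjusted p = 0.00531). Zp3 missed the threshold without the first 2-cell library (adjusted p = 0.0667). Zp1 lay so near 2-fold that 5 of the 9 alternatives called it. Mos did not pass (−0.47, SE 0.326, adjusted p = 0.233), and Figla (−1.87, SE 0.748, adjusted p = 0.0405) lost its call without either MERVL-KD 2-cell library or without the second 4-cell library (adjusted p from 0.12 to 0.27). The estimate of the share left was lower in MERVL-KD than in control for Kit and higher for the 9 other members, although of these differences only those of Zp2 and Gdf9 passed the interaction test, and with library size alone the estimates of Zp3, Oosp1 and Figla were lower too.

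From the 4-cell to the 8-cell stage in MERVL-KD embryos all 10 values were negative, with a median of −0.39 beside −0.04 over all genes. None was called at 2-fold by edgeR or DESeq2, where 1.31% of genes were called lower and 0.333% higher. An unadjusted p under 0.05 was found for 7 of the 10, and the count over all genes at that level is not given here. Zp3 (−0.74, SE 0.179, adjusted p = 0.0205) and Nobox (−0.75, SE 0.213, adjusted p = 0.0479) passed with changes under 2-fold, where 2.41% of all genes passed lower. Nobox kept its place in 4 of 9 alternative settings and Zp3 in 8 of 9, and both were lost when any library but the first 8-cell one was left out (adjusted p from 0.0545 to 0.299 for Zp3 and from 0.127 to 0.437 for Nobox). Zp2 (−0.44, SE 0.137, adjusted p = 0.0729) and Zp1 (−0.68, SE 0.235, adjusted p = 0.107) did not pass.

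The difference between the 8-cell and the 4-cell effect of MERVL-KD was not called for any of the 10 members by edgeR, with the fold threshold, where 0.279% of genes were called in the negative direction and 0.141% in the positive, or without it, where 0.624% of genes passed. Of the 10 values 9 were negative and 4 had an unadjusted p under 0.05, with no count over all genes at that level given here. DESeq2 called Zp1 alone (−1.22, adjusted p = 0.0338), which edgeR did not (−1.20, SE 0.335, adjusted p = 0.11). Over all 24040 genes DESeq2 called 191 in the negative direction and 102 in the positive. Over the whole course from the 2-cell to the 8-cell stage, 9 of 10 members were called lower in MERVL-KD embryos, where 26.4% of genes were called lower, from Oosp1 at −5.46 (SE 0.224) to Zp2 at −1.22 (SE 0.138), with Mos at −0.81 (SE 0.329, adjusted p = 0.0411) under 2-fold and lost with any of the 4 libraries left out (adjusted p from 0.0756 to 0.21). The 2 arms of each stage comparison share no library, but each library enters several of the contrasts above, so these are not independent of one another.

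Genes that act with the members were examined as a list of 36, made up of other zona and secreted oocyte genes, oocyte transcription factors, receptors and SMADs for GDF9 and BMP15, the kinases below MOS, and the ligand and adaptors of KIT. From the 2-cell to the 4-cell stage in control embryos 19 of the 36 were called lower and 4 higher, where 24.3% and 20.7% of all genes were, with a median log2 fold change of −1.18 beside −0.06 over all genes. Oosp3, a relative of Oosp1 in the same secreted family, fell from 76.0 and 76.7 to 1.08 and 1.15 normalised CPM (log2 fold change −6.10, SE 0.244, adjusted p = 1.33e-14). Mapk3, which encodes the MAP kinase ERK1 downstream of MOS, fell from 42.3 and 46.8 to 1.56 and 2.5 normalised CPM (−4.47, SE 0.253, adjusted p = 2.22e-12), and Smad3, a transducer of TGF-beta family signals, fell from 106 and 107 to 22.2 and 20.2 (−2.33, SE 0.131, adjusted p = 1.81e-12). Sos1, an exchange factor that activates RAS below KIT, went the other way, from 99.0 and 118 to 635 and 674 normalised CPM (2.59, SE 0.104, adjusted p = 1.28e-14). In MERVL-KD embryos 14 of the 36 were called lower and 5 higher over the same step, where 23.0% and 21.2% of all genes were.

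Pik3r1, the regulatory subunit of PI3 kinase, was another that fell, by −2.61 on the log2 scale from the 2-cell to the 8-cell stage in control embryos (SE 0.136, adjusted p = 7.07e-13). Of the 36, none was called between the arms at the 2-cell stage by edgeR or DESeq2, though 12 had an unadjusted p under 0.05, as did 5556 of all 20604 genes. Without the fold threshold 6 passed lower and 2 higher, where 7.39% and 6.7% of all genes did. At the 8-cell stage none of the 34 that could be tested was called by either tool, and 10 had an unadjusted p under 0.05, as did 3582 of all 18414 genes. At the 4-cell stage Sohlh2, an oocyte transcription factor that acts upstream of Figla and Nobox in the growing follicle, was called higher in MERVL-KD embryos, at 2.06 and 1.05 normalised CPM against 0.369 and 0.0695 (log2 fold change 2.77, SE 0.769, adjusted p = 0.0406). It did not pass without the second control library (adjusted p = 0.0852) or the first MERVL-KD library (0.207), and its log2 fold change ranged from 2.06 to 4.42 with a library left out. Sohlh2 was the 1 gene that edgeR called of the 34 tested, where 2.66% of all genes were called higher. DESeq2 called Sohlh2 (2.80, adjusted p = 0.0197) and also Kitl, which encodes the ligand of KIT (1.17, adjusted p = 0.011), at this stage. Over all 19738 genes DESeq2 called 556 higher. In the difference of the MERVL-KD effect, 4-cell minus 2-cell, DESeq2 called Sohlh2 and Tcf12 in the positive direction, where it called 474 of 24040 genes. In that of 8-cell minus 4-cell it called Oosp3 and Rps6ka3 in the positive direction, where it called 102 of 24040 genes. Kitl and Rps6ka3 are named after their values were seen. Tcf12, which encodes an E protein that pairs with factors such as FIGLA, had a difference between the 4-cell and the 2-cell effect of 1.13 (SE 0.193, adjusted p = 0.00153), from 35.8 and 40.8 normalised CPM in MERVL-KD against 65.6 and 69.9 in control at the 2-cell stage to 62.7 and 71.3 against 60.4 and 48.1 at the 4-cell stage. It was under 2-fold with library size alone (0.82, adjusted p = 0.0114) and without the second control (0.98) or the second MERVL-KD 4-cell library (0.92). Over all genes edgeR called 1.27% in the positive direction in this difference, and 0.333% higher from the 4-cell to the 8-cell stage in MERVL-KD embryos. In MERVL-KD embryos Oosp3 rose between the 4-cell and the 8-cell stage (log2 fold change 1.12, SE 0.291, adjusted p = 0.0312) from 0.577 and 0.672 to 1.24 and 1.46 normalised CPM, a call that was lost in 3 of the alternative settings and without any of 3 of the 4 libraries.

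The members' median course, centred over the 6 group means on a log2(CPM + 1) scale, was 1.19 in control and 0.90 in MERVL-KD 2-cell embryos, −0.65 and −0.25 at the 4-cell stage, and −0.60 and −0.66 at the 8-cell stage. The 5 other genes nearest to that course by root-mean-square difference were Col19a1 (0.0613), Gm19196 (0.0742), Stpg1 (0.0747), Gm47847 (0.0773) and Zfp707 (0.0776), measured over 6 group means. Among the members Gdf9 was closest to the median (0.0862) and Oosp1 farthest from it (1.73), followed by Bmp15 (1.21). Most of the nearest genes are scarce: Col19a1, a collagen, had 5.36 and 2.95 CPM in control 2-cell libraries and 0.823 and 0.313 at the 4-cell stage, whereas Zfp707, a zinc finger protein, had 147 and 172 CPM and then 35.6 and 46.6. The choice depended on the measure, since only Gm47847 stayed within 6 places of the top when the 12 libraries were used in place of group means.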

How the data were processed

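Only the 12 RNA libraries of the series were analysed here, 2 per arm at 3 stages, and the ATAC-seq samples were not used. The authors primed total RNA at random for stranded libraries, aligned reads to GRCm38 (mm10) with STAR 2.5.3a in a way that reports unique alignments, and ran featureCounts over GENCODE genes and RepeatMasker elements. The deposited values are raw counts for 56326 names, of which 1035 are repeat families. Settings of the counting for strand and pairs are not given in the sources used here. Between 71.8% and 74.7% of counts from 1 to 50 are even, as when a fragment adds 2 counts.

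The counts were fitted in R 4.3.3 with edgeR 4.0.16 (filterByExpr, TMM, robust quasi-likelihood test), arm against arm on the 4 libraries of a stage, and stages and interactions in one fit of 12. Adjustment was by Benjamini-Hochberg across every gene and repeat family tested, and a call needed an adjusted p under 0.05 and a 2-fold change. Intervals are 95%, and SE is the absolute log2 fold change over the square root of F. Shares of genes called and medians over all genes leave out repeat families. The study's methods call the 2 libraries of a group biological replicates, and these differed by more than sampling noise (chi-square over its degrees of freedom between 14.7 and 25.8). As alternatives, the fits were repeated with another tool (DESeq2 1.42.0), with its size factors, with no scaling factor (library size alone), with looser (1 count in all) and stricter (10 counts per library) filters, with the replicate number as a block, without robust estimation, with halved counts, on another set of libraries, with no fold threshold, and leaving out each library, where a group left with 1 library was assumed to vary like the others.

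The 10 members, the 36 partner genes and the marker lists were chosen with earlier results of these data known. Named genes are all members, at most 4 called partners per comparison by smallest adjusted p, and the 5 genes nearest to the members' median course. Promoters come from RefSeq tables of GRCm38.p6. The ASO sequences, from the study's supplement, were compared without gaps with the gene spans of that build.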

Additional observations from a re-analysis of the deposited data

Results flagged for a closer look

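The effect of MERVL-KD on Zp2 differed between stages by a test of the difference itself: the log2 fold change at the 4-cell stage exceeded that at the 2-cell stage by 0.87 (SE 0.192, adjusted p = 0.0121, interaction in edgeR). The same held for Gdf9, at 0.76 (SE 0.186, adjusted p = 0.0219). In both genes each MERVL-KD library was above each control library in 4-cell embryos. In 2-cell embryos each was below with TMM scaling, but the arms overlapped with counts over library totals. Within the 2-cell or the 4-cell stage alone neither gene passed the test between arms (adjusted p from 0.0602 to 0.117). Neither difference between the stages passed with library size alone (Zp2 0.105 and Gdf9 0.174, adjusted p). Zp2 was lost without any of 3 single libraries and Gdf9 without any of 4, with adjusted p-values from 0.0541 to 0.14. Markers of cumulus and granulosa cells summed to 1.98 and 2.8 CPM in MERVL-KD against 1.22 and 1.56 CPM in control 4-cell libraries, where Foxl2 was the only one of the 11 that could be tested and did not pass (adjusted p = 0.109). The part of these markers in the difference was not tested.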

How the results depend on the processing

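The 47 tests of members that passed an adjusted p of 0.05 kept their direction under the alternatives run (417 values) and with a library left out (196 values), and 399 and 160 of these stayed under 0.05. Without the fold threshold 2 members were called between arms in 2-cell embryos and 1 in 4-cell embryos, 1 in the control and 2 in the MERVL-KD 4-cell to 8-cell step, and 2 in the difference of the 4-cell and 2-cell effects; DESeq2 called 1 member, Zp1, in each of the 2 differences between stages. With a library left out, calls ranged from 7 to 9 in the control 2-cell to 4-cell and 2-cell to 8-cell changes and from 5 to 7 in the MERVL-KD 2-cell to 4-cell step, and were 9 in the MERVL-KD 2-cell to 8-cell change and 0 elsewhere.

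Values that turned sign had not passed. With library size alone they were Zp1 (0.1025), Gdf9 (0.0257), Mos (0.0238), Nobox (0.0698) and Kit (0.2142) between arms at the 2-cell stage, Gdf9 in the control 4-cell to 8-cell step (−0.1092), and Zp3 (−0.1431), Oosp1 (−0.0968) and Figla (−0.1823) in the difference of the 4-cell and 2-cell effects. Zp2 in the control 4-cell to 8-cell step turned with DESeq2's size factors (0.0426), DESeq2 (0.0423) and the looser filter (0.0013), and Gdf9 between arms at the 8-cell stage in the fit of 12 libraries (−0.0012). The cause was not tested.

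Others turned with a library left out. Between arms, Oosp1 ranged from −0.5844 to 0.1251 and Figla from −0.8915 to 1.5707 at the 4-cell stage, and Zp2 from −0.0565 to 0.1608, Gdf9 from −0.0957 to 0.1005, Oosp1 from −0.5721 to 0.0264 and Mos from −0.1394 to 0.2715 at the 8-cell stage. In the control 4-cell to 8-cell step the ranges were −0.0257 to 0.0268 for Zp2, −0.1708 to 0.0225 for Zp3, −0.0709 to 0.2887 for Gdf9, −0.4468 to 0.185 for Oosp1, −0.3778 to 0.0663 for Mos and −0.9507 to 0.8972 for Figla, and in MERVL-KD −0.5475 to 0.2062 for Oosp1 and −1.7395 to 0.1141 for Figla. The difference of the 4-cell and 2-cell effects ranged from −0.2959 to 0.5372 for Oosp1 and −1.1269 to 1.3425 for Figla, and that of the 8-cell and 4-cell effects from −0.4468 to 0.2998 for Oosp1, −0.3571 to 0.0876 for Mos, −2.0252 to 0.4449 for Figla and −0.2104 to 0.1206 for Kit.

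Deviations of same-numbered replicates were nearly uncorrelated over all features tested (correlations from −0.0521 to 0.0259). Whether libraries of the same number were handled together cannot be told from this. Under the replicate block the members called were 0 between arms at each stage, 9 in the control and 6 in the MERVL-KD 2-cell to 4-cell step, and the adjusted p of Kit between arms was 0.0608 in 4-cell and 0.0399 in 8-cell embryos. With 2 libraries per group, and 4 to 24 counts of Figla at the 4-cell stage, changes under 2-fold in scarce members could mostly not be detected.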
